A study of Mus musculus with 12 samples.

Results

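Gene expression in the mid-colon of mice drinking dextran sulfate sodium (DSS) was compared between day 4 and day 2 of the treatment. The libraries were the 3 labelled day 4 and the 3 labelled day 2, 6 of the 12 RNA sequencing libraries of a time course whose other libraries were taken at day 0 and day 6. All groups were colon tissue of mice kept free of specific pathogens, which were 7 weeks old when the treatment began. The day 4 mice had drunk 3% DSS for 4 days and the day 2 mice had drunk it for 2 days, so both sides of the comparison received DSS. The day 6 mice had drunk it for 6 days, and day 0 was the start of the treatment. The labels name neither the strain nor the sex of the mice. They place no library of water-drinking mice at days 2, 4 or 6, so time on DSS cannot be told apart from the day on which tissue was taken or from age. Whether replicates are separate animals is not in the labels, so p-values stand for the spread among these libraries alone, and it may be technical. All genes with at least 1 CPM (reads of a gene scaled to a fixed library total) in at least 3 of the 12 libraries were members of the comparison, which gave 15246 of the 25904 gene symbols in the table.

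DSS is a sugar polymer that damages the lining of the colon when it is given in drinking water, after which gut bacteria reach the tissue below and inflammation follows. The colon lining is made of absorptive colonocytes, mucus-secreting goblet cells, hormone-secreting enteroendocrine cells and chemosensory tuft cells, all renewed from stem cells in the crypts. In inflamed tissue, interferons act through transcription factors to switch on large sets of defence genes, and chemokines draw neutrophils and monocytes from the blood.

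The largest rises at day 4 included interferon-induced genes, interferon-induced GTPases and chemokines, and the start regions of 4 of these genes are shown because letters of interferon-responsive elements stand in them. The windows run from 250 bases before to 50 bases after the annotated gene start, 5′ to 3′ on the gene's own strand, and come from RefSeq on GRCm38.p6. Capitals mark matches, on either strand, to the interferon-stimulated response element searched as 2 copies of GAAA with any 2 bases between them, the gamma-activated site searched as TTCNNNGAA and the NF-kB site searched as GGGA, any base and TTTCC. Isg15 (chr4:156200769-156201068, minus strand) encodes a ubiquitin-like protein, Gbp5 (chr3:142496684-142496983, plus strand) and Tgtp1 (chr11:48992197-48992496, minus strand) encode GTPases, and Cxcl10 (chr5:92348840-92349139, minus strand) encodes a chemokine for T cells.
Isg15: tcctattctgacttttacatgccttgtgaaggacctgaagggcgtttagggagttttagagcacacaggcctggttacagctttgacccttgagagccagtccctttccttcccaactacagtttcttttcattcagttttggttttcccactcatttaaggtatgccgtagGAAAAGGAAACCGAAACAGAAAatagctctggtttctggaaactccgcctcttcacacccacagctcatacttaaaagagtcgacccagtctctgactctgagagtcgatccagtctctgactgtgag
Gbp5: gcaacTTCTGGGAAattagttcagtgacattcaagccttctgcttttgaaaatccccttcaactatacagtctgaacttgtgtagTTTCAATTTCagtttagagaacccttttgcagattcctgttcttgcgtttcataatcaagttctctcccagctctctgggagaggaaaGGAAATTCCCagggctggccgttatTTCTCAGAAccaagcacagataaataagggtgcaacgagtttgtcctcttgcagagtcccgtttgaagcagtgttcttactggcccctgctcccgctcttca
Tgtp1: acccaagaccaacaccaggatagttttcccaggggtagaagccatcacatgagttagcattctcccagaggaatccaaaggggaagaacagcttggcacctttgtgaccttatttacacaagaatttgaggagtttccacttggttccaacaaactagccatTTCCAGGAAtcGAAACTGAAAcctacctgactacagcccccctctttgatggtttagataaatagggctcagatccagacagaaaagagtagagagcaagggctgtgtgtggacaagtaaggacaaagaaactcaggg
Cxcl10: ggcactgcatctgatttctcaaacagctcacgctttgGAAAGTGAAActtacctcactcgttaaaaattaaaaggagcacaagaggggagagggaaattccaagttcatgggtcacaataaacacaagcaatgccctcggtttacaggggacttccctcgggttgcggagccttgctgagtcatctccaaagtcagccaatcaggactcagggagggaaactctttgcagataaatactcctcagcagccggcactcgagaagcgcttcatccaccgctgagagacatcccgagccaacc
In Isg15 there were 3 overlapping response elements beginning 78, 72 and 66 bases before the start. Gbp5 had a response element at 165 bases, gamma-activated sites at 245 and 52 bases and an NF-kB site at 77 bases before the start. Tgtp1 had a response element at 77 bases next to a gamma-activated site at 88 bases, and Cxcl10 had a response element at 213 bases. In the windows of Ifi44 and Cxcl9, the other genes picked by the same rule of the 2 largest rises per list, these letters were not found. Iigp1, the GTPase gene with the largest rise, was left out of that choice and its window is not shown. The response element stood in 26 of 44 windows (59.1%) of 37 genes on the interferon-induced and GTPase lists. It stood in 3.44% of all 32851 windows and in 3.24% of those of genes tested. The gamma-activated site stood in 13 of the 44 windows (29.5%), against 8.3% of all windows and 7.05% of those of genes tested. The response element stood in 5.67% of the windows of genes called higher at day 4 and in 1.94% of those called lower. Of the 20 chemokine windows, 2 held it and 3 held the NF-kB letters (15.0%, against 0.411% of all windows and 0.482% of those of genes tested). Of the 57 tested genes on the 2 interferon lists, 20 had no window. A match describes letters only, and binding was not measured.

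Depth ranged from 30979977 to 40930613 reads per library, with 30979977 to 38357826 at day 4 and 35388651 to 39658220 at day 2, so a gene at 1 CPM rested on at least 30 reads. Across the genes tested, libraries of day 4 correlated with each other at r = 0.983 to 0.99, libraries of day 2 at 0.985 to 0.988, and libraries of different days at 0.898 to 0.92. The ribosomal RNA precursor Rn45s took 0.339% to 0.569% of the counts at day 4 and 0.594% to 2.81% at day 2, and its part in the differences was not tested. Epithelium was present on both days: the general epithelial marker Epcam had 1378.2, 1131.3 and 1281.4 CPM at day 4 and 1449.2, 1300.9 and 1270.2 CPM at day 2. The labelled segment of colon was not tested. The day 6 libraries, which share the residual variance of the fit, were uneven: the summed CPM of 12 epithelial markers was 11763.5, 6647.0 and 18991.9 at day 6.

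Between day 2 and day 4 the colon transcriptome changed broadly, with inflammatory and cell-cycle genes higher and genes of absorptive and secretory epithelial function lower. At day 4, 3207 genes (21% of those tested) were higher and 1973 (12.9%) were lower than at day 2 by limma with Benjamini-Hochberg adjustment at 0.05, together 34.0%. The change in CPM + 1 exceeded 8-fold for 155 of the higher and 33 of the lower genes, a measure that leaves out some low genes whose CPM changed by more. Libraries of the 2 days did not overlap for 5307 genes in the higher direction (34.8%) and 3704 in the lower (24.3%). The median difference over all genes was 0.073 on the log2 scale, -0.004 with median-of-ratios scaling and -0.04 after quantile normalization. The share of calls that were higher was 61.9%, but 53.3% after median-of-ratios scaling, 53.2% with edgeR (2657 higher, 17.4%, and 2334 lower, 15.3%), 52.0% with DESeq2 and 48.6% on quantile-normalized values, so the balance of directions depended on the scaling. Counts of list members below stand against the shares of all genes tested, 21% higher and 12.9% lower. All differences below are log2(CPM + 1) at day 4 minus day 2 with their standard error (SE), and adjusted p-values are from limma unless another test is named.

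**Figure D1:**
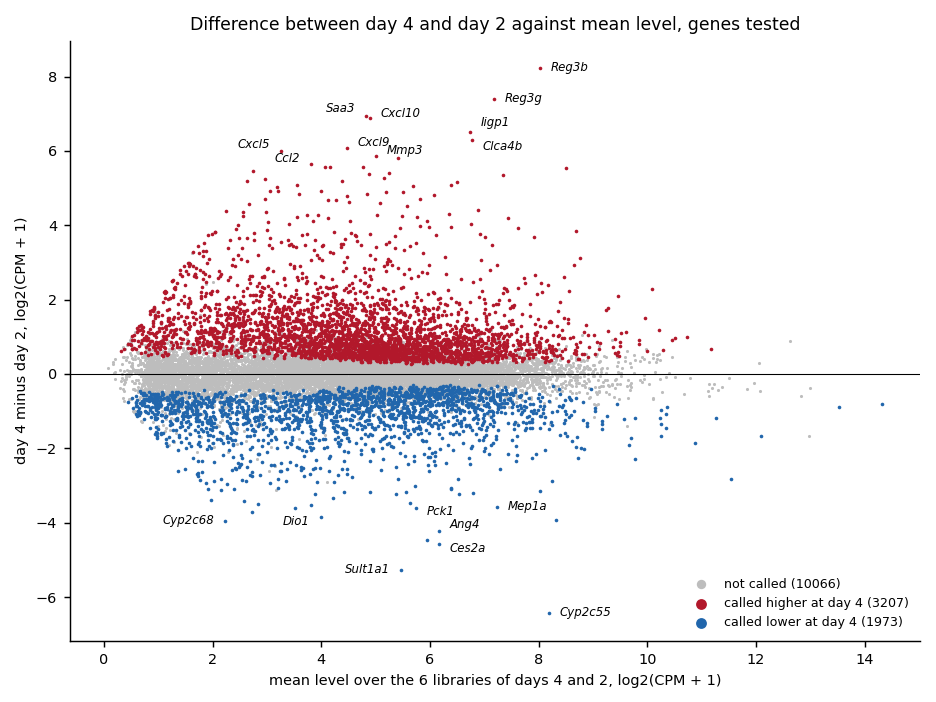
Each point is 1 of 15246 genes, with its mean log2(CPM + 1) over the 6 libraries on the x axis and its log2 difference, day 4 minus day 2, on the y axis. The 3207 genes called higher reach up to Reg3b at 8.23 and the 1973 called lower down to Cyp2c55 at -6.43, while 10066 genes were not called.

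The widest rises included lectins, chemokines and an acute phase gene, and the widest falls included detoxifying enzymes of colonocytes. Reg3b, a bactericidal lectin of the gut epithelium (GRCm38 chr6:78370657-78373466), had 3937.6, 3116.2 and 7431.9 CPM at day 4, against 10.2, 45.5 and 5.48 CPM at day 2. Its difference was 8.23 ± 1.11 (SE, adjusted p = 0.000219), and its lowest day 4 library lay far above its highest day 2 library. Its relative Reg3g had 1583.2, 1254.7 and 3283.8 CPM at day 4, against 7.52, 25.1 and 5.28 CPM at day 2 (7.39 ± 1.05, adjusted p = 0.000315). Saa3, a serum amyloid made in inflamed tissue, had 209.6, 441.2 and 330.1 CPM at day 4, against 1.71, 1.98 and 1.12 CPM at day 2 (6.93 ± 0.64, adjusted p = 1.58e-05). In the other direction, Cyp2c55, a cytochrome P450 of the colon that oxidizes fatty acids and drugs, had 45.2, 14.5 and 41.8 CPM at day 4, against 2645.6, 3554.8 and 2108.5 CPM at day 2. That was the largest fall among the named genes, at -6.43 ± 0.43 (adjusted p = 1.99e-06). Genes were ranked as largest rises or falls only if their days did not overlap, so that separation is not a result for them. Sult1a1, a sulfotransferase of phenols, had 7.41, 4.7 and 6.37 CPM at day 4, against 320.0, 283.2 and 222.7 CPM at day 2 (-5.27 ± 0.24, adjusted p = 1.65e-07). Ces2a, a carboxylesterase, had 14.3, 7.79 and 22.5 CPM at day 4, against 384.6, 436.4 and 252.0 CPM at day 2 (-4.57 ± 0.47, adjusted p = 3.49e-05). Each of these 6 genes kept its call when any 1 of the 12 libraries was left out.

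**Figure D2:**
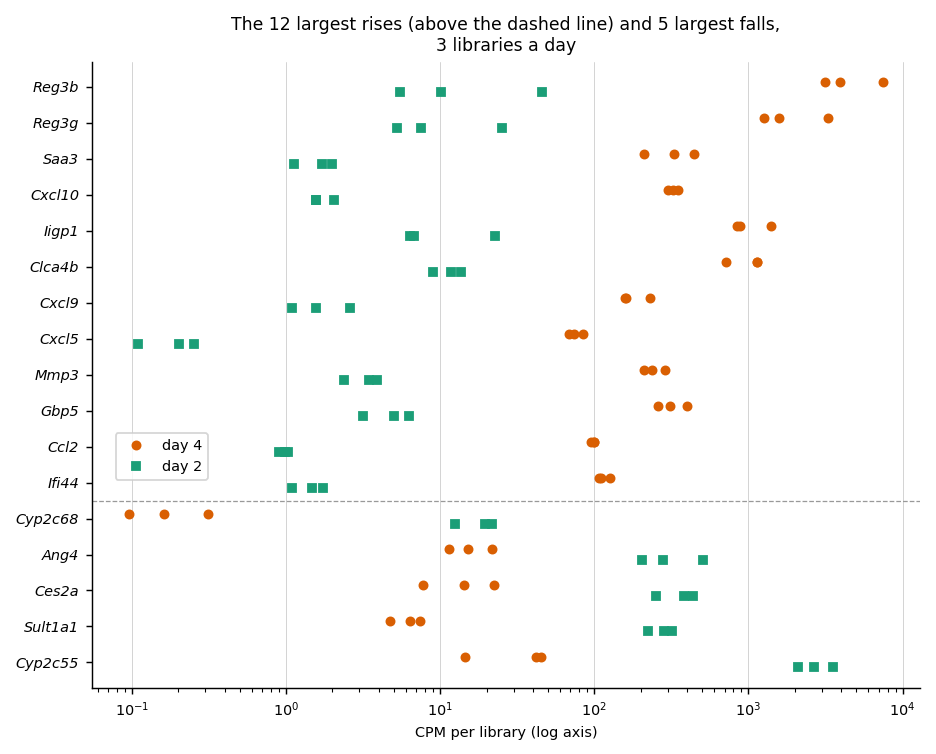
CPM on a log axis in each of the 3 day 4 and 3 day 2 libraries for the 12 genes with the largest rise and the 5 with the largest fall among the named genes. The libraries of the 2 days are apart in all 17 genes because only genes without overlap could be chosen. In order of change the genes run from Reg3b, at 3116.2 CPM or more at day 4, to Cyp2c55, at 45.2 CPM or less at day 4.

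Every tested interferon-induced gene on the list used here was higher at day 4, in a response that included antiviral effectors, sensors and the transcription factors of the pathway. All 37 tested genes rose, with a median difference of 3.69, where 21% of all genes tested were called higher and their median was 0.073. The summed CPM of the list was 9208.7, 10383.5 and 8816.1 at day 4 and 1294.6, 960.4 and 942.6 at day 2. Isg15, whose start region is shown above, had 260.9, 246.1 and 225.7 CPM at day 4 and 7.57, 3.82 and 3.79 CPM at day 2 (5.39 ± 0.51, adjusted p = 1.92e-05). Ifi44, an antiviral protein, had 107.1, 125.6 and 111.0 CPM at day 4 and 1.73, 1.48 and 1.1 CPM at day 2 (5.57 ± 0.31, adjusted p = 6.82e-07). For both genes the groups were apart by more than the whole range of either day. Ifit2, which binds foreign RNA, rose by 5.10 ± 0.42 (adjusted p = 7.25e-06). Among the regulators, Stat2 rose by 2.79, Irf7 by 2.39, Irf9 by 1.6 and Irf1 by 1.40. Ido1, which degrades tryptophan, averaged 225.3 ± 66.8 CPM at day 4 and 4.89 ± 1.78 CPM at day 2 (SD, n = 3 each; 5.27 ± 0.40 on the log2 scale, adjusted p = 4.24e-06).

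The guanylate-binding proteins and immunity-related GTPases, which attack the membranes around intracellular pathogens, rose as well. All 20 tested members were higher, with a median of 4.65. Their summed CPM was 4692.4, 7789.3 and 5061.6 at day 4 and 297.9, 180.4 and 182.4 at day 2. Iigp1 had 838.4, 1406.8 and 882.7 CPM at day 4, against 22.6, 6.35 and 6.8 CPM at day 2 (6.52 ± 0.46, adjusted p = 2.66e-06). Gbp5 had 258.0, 402.2 and 311.9 CPM at day 4, against 6.26, 3.16 and 5.03 CPM at day 2 (5.82 ± 0.24, adjusted p = 1.19e-07). Day 4 replicate 2 was the highest library for both, and the days did not overlap. Tgtp1 and its close neighbour Tgtp2 rose by 5.57 and 5.19, but near-identical members of the family may share reads, so their separate values are uncertain. The smallest rise was that of Gvin1, at 1.05.

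Antigen presentation genes rose, class I in full and class II in part. All 22 tested class I genes rose (median 1.5). Nlrc5, the transcriptional activator of class I genes, had 133.2, 168.8 and 125.3 CPM at day 4, against 8.83, 4.7 and 6.21 CPM at day 2 (4.27 ± 0.29, adjusted p = 2.19e-06). Tap1, a subunit of the peptide transporter, averaged 445.3 ± 45.3 CPM at day 4 and 32.7 ± 11.1 CPM at day 2 (3.77 ± 0.26, adjusted p = 2.41e-06). H2-Q6 and H2-Q7 rose by 3.47 and 3.56, with the same doubt about shared reads between near-identical genes. Of 13 tested class II genes, 9 rose (median 0.88), among them the costimulatory receptor Cd40 by 2.65 ± 0.23 (adjusted p = 8.79e-06), the peptide exchange factor H2-DMa by 1.46 and Cd74, the invariant chain, by 0.85. The class II chains H2-Aa and H2-Eb1 had differences of 0.73 and 0.65 that did not pass the test, and Ciita, the activator of class II genes, rose by 1.58. The 2 lists were not tested against each other.

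**Figure D3:**
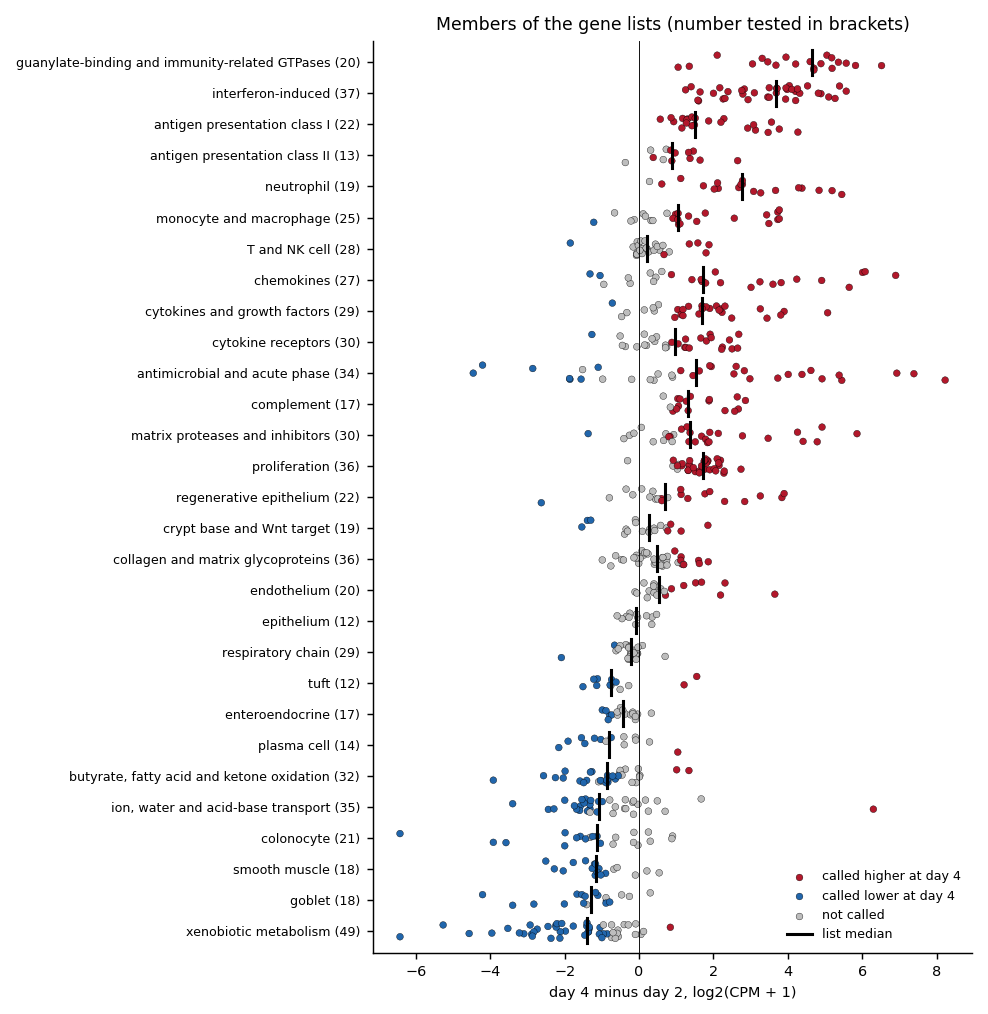
The log2 difference, day 4 minus day 2, of each tested member of 29 gene lists, with a bar at each list's median. The interferon-induced list (median 3.69) and the GTPases (4.65) lie wholly above 0, while xenobiotic metabolism (-1.40) and goblet markers (-1.29) lie mostly below it.

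Several chemokines that attract neutrophils, monocytes and T cells were abundant at day 4 and close to absent at day 2. Of 27 tested chemokine genes, 18 rose and 2 fell (median 1.71). Cxcl10 had 298.6, 351.5 and 322.8 CPM at day 4, against 2.06, 1.57 and 1.57 CPM at day 2 (6.90 ± 0.33, adjusted p = 2.98e-07). Cxcl9, which shares its receptor on T cells, had 158.9, 229.0 and 160.8 CPM at day 4, against 2.59, 1.1 and 1.57 CPM at day 2 (6.08 ± 0.39, adjusted p = 1.41e-06). Neither gene had a day 2 library above 3 CPM. Ccl2, the main attractant of monocytes, had 99.4, 94.7 and 99.5 CPM at day 4, against 1.03, 0.989 and 0.899 CPM at day 2 (5.65 ± 0.21, adjusted p = 5.32e-08). The neutrophil attractants Cxcl5 and Cxcl1 averaged 75.7 ± 8.15 and 24.9 ± 4.37 CPM at day 4, against 0.188 ± 0.0723 and 0.375 ± 0.274 CPM at day 2 (6.01 ± 0.25, adjusted p = 1.33e-07, and 4.24 ± 0.37, adjusted p = 1.11e-05). The 2 chemokines that fell were Ccl6 and the epithelial Ccl28, which draws plasma cells to mucosa, by 1.05 and 1.32. Both of these calls were lost on leaving out any of several single libraries: for Ccl6 day 2 replicates 1 and 2 and day 4 replicates 1 and 3 (adjusted p = 0.0506 to 0.0563), and for Ccl28 any library of day 0, 2 or 4 (adjusted p = 0.0535 to 0.122).

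Cytokines and growth factors rose in 22 of 29 tested cases (median 1.69), and 1 fell. Il1b, a central inflammatory cytokine, had 89.9, 61.7 and 53.6 CPM at day 4, against 0.729, 1.02 and 1.35 CPM at day 2 (5.07 ± 0.28, adjusted p = 6.82e-07). Il6, which signals through STAT3, had 12.1, 11.8 and 6.63 CPM at day 4 and no read in any day 2 library. Against a floor of 3 reads over the 3 day 2 libraries, Il6 was at least 372.6-fold higher (fitted adjusted p = 1.07e-05). Il22, which acts on epithelial cells and induces Reg3 lectins, had 7.17, 3.38 and 1.9 CPM at day 4 and likewise no read at day 2, which made it at least 155.0-fold higher (adjusted p = 0.000296). Such floors cover counting error only. Il11, a stromal cytokine of repair, had 23.2, 32.7 and 9.94 CPM at day 4, against 0.629, 0.577 and 0.0562 CPM at day 2 (3.90 ± 0.38, adjusted p = 2.15e-05). Ifng, the gamma interferon gene, had 4.15, 3.22 and 3.85 CPM at day 4 and 4 reads in all at day 2 (2.19 ± 0.51, adjusted p = 0.00667). With a pseudocount of 5 the difference of Ifng was 0.79 and its call was lost (adjusted p = 0.0618). Tnf spread more, with 31.0, 12 and 12.5 CPM at day 4 against 3.67, 8.19 and 3.62 CPM at day 2 (1.61 ± 0.41, adjusted p = 0.0112). Osm, a gp130 cytokine of myeloid cells, rose by 2.31 ± 0.30 (adjusted p = 0.000174). Il17a stayed under the level needed for testing, with 0.321, 0.386 and 0.156 CPM at day 4 and no read at day 2. The gene that fell was Tnfsf15, an endothelial and myeloid ligand, by 0.72, with adjusted p = 0.0122, or 0.0502 without day 4 replicate 3.

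Among cytokine receptors and decoys, 16 of 30 rose and 1 fell (median 0.97). Il18bp, a secreted trap for interleukin 18, averaged 70.0 ± 7.91 CPM at day 4 and 4.05 ± 0.108 CPM at day 2 (3.81 ± 0.24, adjusted p = 1.3e-06). Il1r2, a decoy for interleukin 1, rose by 2.68 ± 0.32 (adjusted p = 0.000103), Csf2rb, the shared chain of the GM-CSF receptor, by 2.65 ± 0.25 and Il10ra by 2.50 ± 0.24. Il22ra2, a decoy that captures interleukin 22, had 0.428, 0.29 and 0.312 CPM at day 4, against 2.26, 3.93 and 1.1 CPM at day 2, and fell by 1.27 ± 0.27 (adjusted p = 0.00432). The ligand Il22 and this decoy thus moved in opposite directions between the days. Of 25 feedback genes of NF-kB and STAT3 signalling, 15 rose and 2 fell (median 0.95). Socs3, which STAT3 induces and which inhibits it, had 229.0, 156.3 and 165.2 CPM at day 4, against 16.5, 13.3 and 15.1 CPM at day 2 (3.51 ± 0.29, adjusted p = 7.74e-06). Tnfaip2 and the adhesion molecule Icam1 rose by 3.44 and 2.91. The 2 falls, Socs2 and Traf1, were lost on leaving out single libraries (Socs2 without day 2 replicate 1 or 2 or day 4 replicate 1 or 3, Traf1 without those or day 4 replicate 2), with adjusted p up to 0.0862 and 0.101.

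Many sensors of microbes rose and few fell. Of 32 pattern recognition and inflammasome genes, 17 rose and 2 fell (median 0.75), where 21% and 12.9% of all genes did. The falls numbered 4 without day 6 replicate 2 and 6 with only the libraries of days 2 and 4. Tlr9, the receptor for bacterial DNA, had 16.3, 28.0 and 21.3 CPM at day 4, against 2.39, 2.23 and 2.3 CPM at day 2 (2.76 ± 0.21, adjusted p = 4.04e-06). Tlr5, the receptor for flagellin, had 3.99, 4.15 and 3.82 CPM at day 4, against 10.2, 16.7 and 12.4 CPM at day 2 (-1.47 ± 0.29, adjusted p = 0.00241). The inflammasome sensor Nlrp3 rose by 2.68 ± 0.26 and the pyrin gene Mefv by 2.64 ± 0.27. Gsdmc3, a gasdermin of the colon epithelium, fell by 2.6 ± 0.57 (adjusted p = 0.00459).

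Neutrophil markers were at clear levels at day 4 and close to 0 at day 2. Of 19 tested neutrophil genes, 18 rose (median 2.78), and Ngp, a granule gene of immature neutrophils, had a difference of 0.28 that did not pass. The summed CPM of the list was 490.2, 391.2 and 363.9 at day 4 and 15.9, 10.6 and 15.6 at day 2. S100a9, a calcium-binding alarmin, had 54.1, 41.7 and 36.6 CPM at day 4 and 2 reads in all at day 2 (5.45 ± 0.37, adjusted p = 2.15e-06). Ly6g, a surface marker of neutrophils, had 176.0, 140.7 and 141.3 CPM at day 4, against 7.12, 0.989 and 8.51 CPM at day 2 (4.84 ± 0.58, adjusted p = 9.75e-05). Acod1, which makes itaconate in activated myeloid cells, averaged 38.1 ± 13.3 CPM at day 4 and 0.0335 ± 0.0581 CPM at day 2. The granule genes Elane, Mpo and Camp stayed below the level needed for testing. In bulk tissue, a change in the number of cells of a type and a change in RNA per cell cannot be told apart, here and in all lists of cell type markers that follow.

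Monocyte and macrophage markers rose in 16 of 25 tested cases and fell in 1 (median 1.05), with a summed CPM of 2254.6, 2485.8 and 2174.2 at day 4 and 918.6, 708.3 and 788.0 at day 2. Ly6c2, a marker of inflammatory monocytes, had 65.4, 125.8 and 85.1 CPM at day 4, against 9.68, 3.52 and 5.5 CPM at day 2 (3.73 ± 0.33, adjusted p = 1.18e-05). Fcgr1, the high-affinity IgG receptor, rose by 3.77 ± 0.22 (adjusted p = 8.21e-07) and Chil3 by 3.77 ± 0.57. Mertk, a receptor of resident macrophages for dying cells, had 20.8, 19.2 and 23.6 CPM at day 4, against 37.5, 68.8 and 49.8 CPM at day 2, and fell by 1.22 ± 0.24 (adjusted p = 0.00247). Of 12 dendritic cell markers, 5 rose and 1 fell, with Irf8 up by 1.49 and the migration receptor Ccr7 by 1.43. The fall of Cd83, by 0.92, was lost without day 2 replicate 1 (adjusted p = 0.106) or any single day 4 library (0.0569 to 0.0824).

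T and NK cell markers were called higher about as often as all genes, and many plasma cell markers fell. Of 28 T and NK cell genes, 5 rose and 1 fell (median 0.20), where 21% and 12.9% of all genes did. Their summed CPM of 74.3, 81.5 and 80.3 at day 4 overlapped the 82.4, 82.5 and 66.6 of day 2. The T cell receptor complex genes Cd3e and Cd3g had differences of -0.05 and -0.02 that did not pass. The cytotoxic receptor Klrk1 rose by 1.88 ± 0.20 (adjusted p = 4.28e-05) and the protease Gzmb by 1.58 ± 0.25 (adjusted p = 0.000701). With day 6 replicate 2 left out, 8 T and NK genes rose, with a pseudocount of 5 only 3 did, and with only the libraries of days 2 and 4 the number was 9. Of 14 plasma cell genes, 7 fell and 1 rose (median -0.82), with a summed CPM of 1419.6, 1073.9 and 927.8 at day 4 and 3745.6, 2229.7 and 2929.0 at day 2. Jchain, which joins IgA and IgM into polymers, had 113.0, 81.3 and 57.4 CPM at day 4, against 465.8, 272.6 and 385.0 CPM at day 2 (-2.16 ± 0.45, adjusted p = 0.0033). Leaving out day 2 replicate 1 or day 4 replicate 3 left 2 of these 7 calls, and leaving out day 4 replicate 2 left 4. B cell markers, of which 9 were tested, had 1 rise and 3 falls, and none of the falls was called in the absence of day 2 replicate 1.

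Secreted host defence changed in composition. Of 34 antimicrobial and acute phase genes, 19 rose and 7 fell (median 1.54). Besides the lectins, Nos2, which makes nitric oxide, had 309.3, 118.3 and 181.6 CPM at day 4, against 3.95, 2.61 and 4.24 CPM at day 2 (5.38 ± 0.50, adjusted p = 1.66e-05). The iron chelator trap Lcn2 had 33.0, 56.1 and 47.4 CPM at day 4, against 2.14, 2.34 and 2.86 CPM at day 2 (3.73 ± 0.45, adjusted p = 0.000104). Duox2 and its maturation factor Duoxa2, which make hydrogen peroxide at the epithelial surface, rose by 1.94 and 2.55. On the side of the falls, Ang4, an antimicrobial ribonuclease of secretory cells, had 21.7, 15.2 and 11.4 CPM at day 4, against 504.2, 204.4 and 278.3 CPM at day 2 (-4.21 ± 0.45, adjusted p = 4.47e-05). Itln1, an intelectin that binds microbial sugars, fell by 2.86, and Pigr, the receptor that carries IgA into the lumen, by 1.87. Mptx1, a pentraxin, had 47.3, 8.15 and 4.06 CPM at day 4, against 976.1, 30.8 and 764.4 CPM at day 2. Its fall of 4.46 ± 1.22 (adjusted p = 0.015) overlapped between the days and was lost without day 2 replicate 1 or 3 or day 4 replicate 2 or 3 (adjusted p = 0.0505 to 0.0649). Of the 7 falls, 4 were called when replicate 1 or 3 of day 2 or replicate 1 of day 4 was absent, and 3 when replicate 3 of day 4 was.

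Complement genes rose in 15 of 17 tested cases (median 1.32). C3, the central component, had 447.0, 837.9 and 609.6 CPM at day 4, against 138.2, 42.6 and 146.3 CPM at day 2 (2.67 ± 0.53, adjusted p = 0.0025). C2, a subunit of the convertase that cleaves C3, rose by 2.86 ± 0.27 and C1ra, a protease of the classical pathway, by 2.64 ± 0.27. Day 4 replicate 2 was the highest of the day 4 libraries for C3 and for C1ra. The eicosanoid pathway had calls in both directions: of 22 genes, 7 rose and 4 fell, where 21% and 12.9% of all genes did. Without day 2 replicate 2 or day 4 replicate 2, 4 rose. The prostaglandin E2 synthase Ptges averaged 33.4 ± 3.1 CPM at day 4 and 9.86 ± 1.69 CPM at day 2 (1.67 ± 0.28, adjusted p = 0.00098), and the inducible cyclooxygenase Ptgs2 rose by 1.31 ± 0.33. Hpgd, which degrades prostaglandins, averaged 29.4 ± 5.47 CPM at day 4 and 151.0 ± 18.2 CPM at day 2 (-2.33 ± 0.20, adjusted p = 1.08e-05).

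Many enzymes that remodel the matrix rose. Of 30 matrix proteases and inhibitors, 20 rose and 1 fell (median 1.36). Mmp3, stromelysin 1, had 210.3, 286.9 and 235.3 CPM at day 4, against 3.87, 2.39 and 3.48 CPM at day 2 (5.86 ± 0.35, adjusted p = 1.07e-06). Mmp10 and the collagenase Mmp13 rose by 4.92 and 4.79, and the protease inhibitor Serpina3n by 4.41. Mmp15, a membrane-bound member, fell by 1.37 ± 0.19 (adjusted p = 0.000287). Of 36 collagens and matrix glycoproteins, 8 rose (median 0.49), a share near the 21% of all genes, led by Col18a1 at 1.86 ± 0.32, Lama1 at 1.62 and the proteoglycan Vcan at 1.6, while Col1a1 and Col1a2 had differences of 0.74 and 0.53 that did not pass. The 8 became 5 with quantile normalization and on leaving out any library of days 2 and 4 other than day 4 replicate 1, and 17 with only the libraries of days 2 and 4. Among TGF-beta, BMP and Wnt signals, 9 of 36 rose and 3 fell, again shares near those of all genes (5 rose without day 4 replicate 2, and 1 fell without day 2 replicate 3 or day 4 replicate 1 or 2). Grem1, a stromal BMP inhibitor, had 285.9, 474.9 and 327.3 CPM at day 4, against 37.6, 32.9 and 58.5 CPM at day 2 (3.06 ± 0.41, adjusted p = 0.000221). Rspo3, a stromal Wnt amplifier that supports crypt stem cells, had 28.6, 52.5 and 33.4 CPM at day 4, against 6.31, 6.4 and 6.82 CPM at day 2 (2.34 ± 0.34, adjusted p = 0.000381).

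Most smooth muscle markers fell, some vascular markers rose, and fibroblast markers were called about as often as all genes. Of 24 fibroblast genes, 6 rose and 4 fell, where 21% and 12.9% of all genes did. With only the libraries of days 2 and 4, 11 rose. The 6 became 3 without day 2 replicate 1 or 2 or day 4 replicate 2 or 3, and the 4 became 2 without day 2 replicate 1 or day 4 replicate 1 or 2. Pdpn, a marker of activated fibroblasts and lymphatic vessels, rose by 1.77 ± 0.30 and Ogn, a small proteoglycan, fell by 1.96 ± 0.22. Of 20 endothelial genes, 8 rose (median 0.53), among them adhesion molecules for leukocytes: Selp rose by 3.65 ± 0.46, Vcam1 by 2.31 ± 0.23 and Madcam1 by 1.68 ± 0.28, and Sele averaged 3.68 ± 0.823 CPM at day 4 with 2 reads at day 2. Of 18 smooth muscle genes, 13 fell (median -1.15), and their summed CPM was 6344.9, 9953.2 and 8833.5 at day 4 and 20868.1, 16947.9 and 19382.3 at day 2. Actg2, the enteric smooth muscle actin, had 325.5, 425.2 and 441.6 CPM at day 4, against 2246.2, 1696.8 and 1837.5 CPM at day 2 (-2.28 ± 0.25, adjusted p = 5.46e-05). In the absence of day 2 replicate 1 there were 8 falls, and in that of day 4 replicate 1 there were 7.

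Markers of tissues other than colon also differed between the days. The 18 listed skeletal muscle genes summed to 68.6, 107.6 and 61.6 CPM at day 4 and 49.6, 29.5 and 28.2 CPM at day 2. Of 16 tested, 2 rose (Tnni2 and Pvalb) and 1 fell (Ckm), and all 3 calls were lost on leaving out single libraries. Other settings called more of them higher: 8 with DESeq2, 11 with only the libraries of days 2 and 4, 6 without day 0 replicate 2 or 3, 5 without day 6 replicate 1 and 4 with the replicate number as a block. Myh4, a myosin of fast skeletal muscle, had 6.91, 15.2 and 5.62 CPM at day 4 and no read at day 2 (3.24, adjusted p = 0.0648). Of 13 pancreas and liver markers, Cela1 and Ttr were tested and fell, by 1.75 and 1.86, and the list summed to 21, 18.4 and 20.0 CPM at day 4 and 89.3, 50.1 and 77.0 CPM at day 2. The pancreatic enzymes Pnlip, Cpa1 and Amy2b were at or near 0 in all 6 libraries, and Alb was at 0.214 to 0.322 CPM at day 4 and 0.22 to 0.528 CPM at day 2. What part the depth of dissection had in the muscle values was not tested.

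Cell division genes rose nearly as a block. Of 36 proliferation genes, 32 rose (median 1.72), and the list summed to 2938.4, 2153.4 and 2622.6 CPM at day 4 and 846.4, 960.6 and 1026.4 CPM at day 2. At day 0 the list summed to 1543.6, 1566.5 and 1532.4 CPM, so day 2 lay below the start. Rrm2, a subunit of the enzyme that makes DNA building blocks, had 83.8, 61.8 and 70.9 CPM at day 4, against 9.91, 10.8 and 8.96 CPM at day 2 (2.74 ± 0.37, adjusted p = 0.000213). Uhrf1, which keeps DNA methylation through replication, had 82.8, 75.2 and 78.4 CPM at day 4, against 15.0, 17.0 and 14.2 CPM at day 2 (2.29 ± 0.31, adjusted p = 0.000244). For both genes the lowest day 4 library was over the highest day 2 library by more than 50 CPM. All 6 subunits of the replicative helicase rose, from Mcm7 at 1.46 and Mcm6 at 1.68 through Mcm2 at 1.79, Mcm4 at 2.02 and Mcm5 at 2.06 to Mcm3 at 2.15. Mki67 did not pass the test (1.06 ± 0.45, adjusted p = 0.0925), with 326.5, 186.0 and 238.1 CPM at day 4 and 77.1, 124.9 and 163.7 CPM at day 2, nor did Ccnb2, Cenpf and Plk1. Myc, which drives growth, rose by 1.85 ± 0.25 (adjusted p = 0.000215).

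Crypt base markers were called about as often as all genes, while many genes of regenerating epithelium rose. Of 19 crypt base and Wnt target genes, 4 rose and 3 fell (median 0.27), shares near the 21% and 12.9% of all genes. With edgeR, 3 rose and 4 fell. Lgr5, the marker of active stem cells, had 1.04, 1.19 and 2.37 CPM at day 4 and 2.59, 3.19 and 1.26 CPM at day 2 (-0.39 ± 0.32, adjusted p = 0.38), so its libraries overlapped. Tnfrsf19, another crypt marker, fell by 1.39 ± 0.28 and Cd44 rose by 0.85 ± 0.20. The 4 rises became 2 under both other scalings and on leaving out day 2 replicate 2 or 3 or any day 4 library. Of 22 genes of regenerating or fetal-like epithelium, 12 rose and 1 fell (median 0.69). Ly6a, also called Sca-1, had 1595.9, 1677.6 and 1424.5 CPM at day 4, against 127.2, 75.0 and 133.3 CPM at day 2 (3.84 ± 0.26, adjusted p = 1.83e-06). It is also induced by interferon and made by endothelium, and the source of its rise was not tested. Anxa8 rose by 2.84 ± 0.31 and the growth factors Ereg and Areg by 2.30 and 1.77. Krt17, a keratin, had 0.696, 2.29 and 2.31 CPM at day 4, against 17.2, 16.0 and 13.2 CPM at day 2, and fell by 2.63 ± 0.28 (adjusted p = 3.97e-05).

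General epithelial markers gave no calls while many genes of epithelial function fell. Of 12 epithelial markers, 0 were called by limma, 0 had an unadjusted p under 0.05, and 0 were called by edgeR or by DESeq2, with a median of -0.08. With only the 6 libraries of days 2 and 4, or without day 6 replicate 2, 1 of the 12 was higher and 2 were lower. Their summed CPM was 15774.9, 13221.4 and 14733.2 at day 4 and 18176.4, 14961.6 and 15483.1 at day 2, so the days overlapped. Of 21 colonocyte genes, 11 fell (median -1.13). The carbonic anhydrase Car1 had 837.4, 491.3 and 776.4 CPM at day 4, against 1755.2, 4215.8 and 1411.6 CPM at day 2 (-1.68 ± 0.41, adjusted p = 0.00896). Guca2a, the hormone guanylin, had 198.4, 225.4 and 234.2 CPM at day 4, against 970.4, 802.7 and 866.4 CPM at day 2 (-2.0 ± 0.23, adjusted p = 7.64e-05). Of 26 intestinal transcription factors, 4 fell, a share near the 12.9% of all genes (8 with DESeq2, 12 without day 6 replicate 2 and 18 with only the libraries of days 2 and 4): Ppargc1a by 2.57, the vitamin D receptor gene Vdr by 1.94, Spdef by 1.54 and Atoh1 by 1.11. The last 2, which specify secretory cells, lost their call without single libraries (Spdef without day 2 replicate 1 or 2 or day 4 replicate 2 or 3, Atoh1 without any library of days 0, 2 or 4 and without day 6 replicate 1). The factors Cdx2 and Hnf4a, which maintain intestinal identity, each had a difference of -0.35 that did not pass.

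Many genes of detoxification fell. Of 49 xenobiotic metabolism genes, 34 fell and 1 rose (median -1.40), where 12.9% of all genes tested were called lower. The list summed to 1518.1, 1162.6 and 1591.6 CPM at day 4 and 7309.4, 9114.5 and 6145.6 CPM at day 2. Besides Cyp2c55, Sult1a1 and Ces2a, the related P450 gene Cyp2c68 had 0.161, 0.0966 and 0.312 CPM at day 4, against 19.6, 12.4 and 21.6 CPM at day 2 (-3.96 ± 0.54, adjusted p = 0.000242). Ugt1a1, which conjugates bilirubin, had 2.7, 1.55 and 6.5 CPM at day 4, against 42.0, 75.3 and 31.9 CPM at day 2 (-3.53 ± 0.48, adjusted p = 0.000222). Genes of the Ugt1a cluster share exons, so reads may be split between them. Mgst1, a microsomal glutathione transferase, was the gene that rose, by 0.84 ± 0.17.

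Salt and water transport fell in 18 of 35 tested genes and rose in 1 (median -1.09). Slc26a3, the chloride and bicarbonate exchanger of surface colonocytes, had 289.9, 146.7 and 202.6 CPM at day 4, against 631.3, 479.4 and 766.3 CPM at day 2 (-1.58 ± 0.29, adjusted p = 0.00178). Trpm6, the magnesium channel, averaged 15.8 ± 6.87 CPM at day 4 and 79.2 ± 26.7 CPM at day 2 (-2.29 ± 0.34, adjusted p = 0.000378). Best2, a bicarbonate channel of goblet cells, had 0.161, 0.258 and 0.208 CPM at day 4, against 13, 7.17 and 17.1 CPM at day 2 (-3.40 ± 0.45, adjusted p = 0.000193). The gene that rose was Clca4b, a chloride channel accessory protein, with 1136.0, 710.3 and 1131.9 CPM at day 4, against 11.8, 13.6 and 8.93 CPM at day 2 (6.30 ± 0.58, adjusted p = 1.56e-05). Its relative Clca1, a mucus-processing protein of goblet cells, had 1820.5, 865.5 and 864.8 CPM at day 4, against 11447.5, 5256.2 and 8172.3 CPM at day 2 (-2.83 ± 0.45, adjusted p = 0.000631). These 2 genes of the same family therefore lay on opposite sides, each with no overlap between the days.

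Burning of fatty acids, ketone synthesis and butyrate use, the main fuel pathways of colonocytes, fell in 19 of 32 tested genes and rose in 2 (median -0.85). Ppara, a nuclear receptor that drives fatty acid oxidation, had 5.78, 6.57 and 9.1 CPM at day 4, against 30.2, 50.8 and 33.8 CPM at day 2 (-2.25 ± 0.21, adjusted p = 1.86e-05). Acadl, a dehydrogenase of long-chain fatty acids, rose by 1.34 ± 0.17 (adjusted p = 0.000164) and Acsl5 by 1.01. The respiratory chain, downstream of these pathways, had 2 falls among 29 tested genes (median -0.23), a share below the 12.9% of all genes. They were Cox7a1, a muscle isoform, by 2.09 and Ndufa1 by 0.66. Falls numbered 5 without day 6 replicate 2, 4 without day 6 replicate 3 and 9 with only the libraries of days 2 and 4. Of 29 glycolysis and hypoxia genes, 14 rose and 4 fell (median 0.60), or 2 fell without day 2 replicate 2 or day 4 replicate 1. Hif1a, the oxygen-regulated transcription factor, had 432.5, 329.7 and 297.2 CPM at day 4, against 85.7, 69.3 and 113.7 CPM at day 2 (1.98 ± 0.22, adjusted p = 5.32e-05). Pfkfb3, an activator of glycolysis, and Slc16a3, which exports lactate, rose by 2.93 and 1.69.

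Markers of the secretory lineages fell in many cases. Of 18 goblet cell genes, 13 fell (median -1.29), with a summed CPM of 16901.7, 16726.8 and 15912.0 at day 4 and 44421.4, 35535.3 and 38905.4 at day 2. The 13 became 7 without day 2 replicate 1 or day 4 replicate 3 and 8 without day 4 replicate 1 or 2. Muc2, the gel-forming mucin, had 7284.6, 9772.8 and 9239.3 CPM at day 4, against 15176.9, 18636.2 and 14418.9 CPM at day 2 (-0.88 ± 0.30, adjusted p = 0.0435). Although its days did not overlap, its call was lost without any library of days 2 and 4, day 0 replicate 3 or day 6 replicate 1 (adjusted p = 0.0566 to 0.144), and on quantile-normalized values its difference was -0.10 (adjusted p = 0.839). Of 32 junction and mucin glycosylation genes, 9 fell and 2 rose, or 14 fell and 6 rose with only the libraries of days 2 and 4. The 2 rises became 1 after median-of-ratios scaling and without any library of days 2 and 4, and 4 without day 6 replicate 2. B3gnt6, which extends mucin sugars, averaged 15.1 ± 2.88 CPM at day 4 and 112.1 ± 15.2 CPM at day 2 (-2.82 ± 0.23, adjusted p = 7.25e-06), and the tight junction gene Ocln fell by 1.28 ± 0.25. Of 12 tuft cell genes, 7 fell and 2 rose. Trpm5, a channel of taste signalling in tuft cells, had 8.78, 7.6 and 10.3 CPM at day 4, against 26.8, 29.3 and 25.0 CPM at day 2 (-1.51 ± 0.18, adjusted p = 7.99e-05). Alox5ap, 1 of the 2 that rose (1.55), is also expressed by myeloid cells, and the source of its rise was not tested. Of 17 enteroendocrine genes, 5 fell (median -0.44), among them Chga by 0.99 ± 0.18 (adjusted p = 0.00156). These 5 falls came to 2 with day 2 replicate 2 left out, 3 with day 4 replicate 2 left out and 9 with only the libraries of days 2 and 4.

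**Figure D4:**
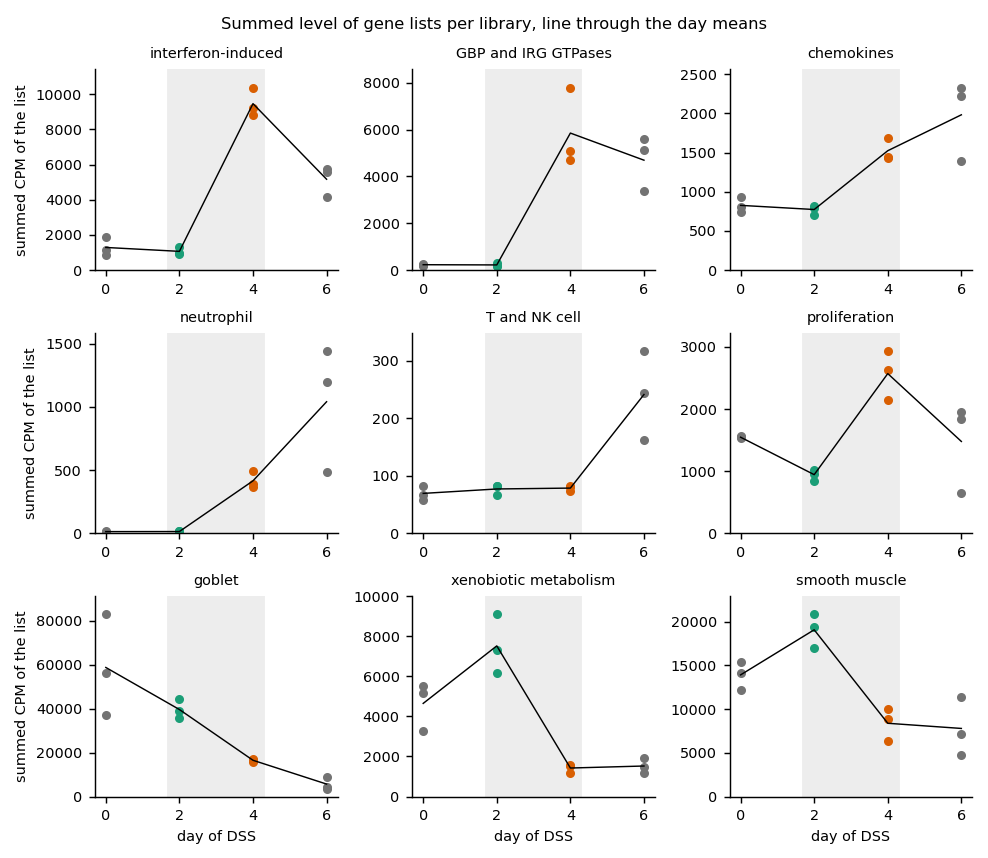
Summed CPM of the members of 9 lists in each library at days 0, 2, 4 and 6, with a line through the day means. The neutrophil sum lies at 363.9 to 490.2 at day 4 and 10.6 to 15.9 at day 2, and the xenobiotic sum at 1162.6 to 1591.6 at day 4 and 6145.6 to 9114.5 at day 2.

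In other stress and metabolic programmes some genes passed the test in each direction. Of 27 genes of tryptophan, arginine and polyamine metabolism, 14 rose and 5 fell, with Ido1 and Nos2 leading the rises and the liver-type tryptophan enzyme Tdo2 falling by 1.46 (adjusted p = 0.0144, or 0.0512 without day 2 replicate 3). The amino acid transporter Slc7a5 averaged 67.8 ± 1.24 CPM at day 4 and 18.6 ± 1.44 CPM at day 2 (1.81 ± 0.23, adjusted p = 0.000131). Of 22 unfolded protein response genes, 9 rose and 2 fell: the chaperone Hspa5 rose by 0.91 ± 0.22, and Ern2, the sensor of goblet cells, had 62.6, 65.0 and 65.3 CPM at day 4, against 185.4, 216.1 and 200.8 CPM at day 2 (-1.62 ± 0.41, adjusted p = 0.0102). Of 29 antioxidant and metal genes, 9 rose and 3 fell, where 21% and 12.9% of all genes did. Gpx2, the epithelial glutathione peroxidase, rose by 2.61 ± 0.68 (adjusted p = 0.0116), and Slc30a10, a manganese exporter, had 0.241, 0.322 and 0.286 CPM at day 4, against 3.8, 30.6 and 7.61 CPM at day 2 (-3.09 ± 0.50, adjusted p = 0.000761). Day 2 replicate 2 set much of the day 2 mean of Slc30a10. Of 25 immediate early genes, which also respond to handling of tissue, 6 rose and 4 fell, shares near the 21% and 12.9% of all genes, and their median of 0.06 changed sign with the scaling (-0.02 after median-of-ratios scaling, -0.06 on quantile-normalized values).

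Glucocorticoid-responsive genes had calls in both directions: of 19 tested, 7 fell, 3 rose and 9 did not pass (median -0.42). Of all genes, 12.9% fell and 21% rose. Sgk1, a kinase that raises sodium uptake, had 25.9, 30.0 and 29.1 CPM at day 4, against 147.9, 130.2 and 203.0 CPM at day 2 (-2.44 ± 0.25, adjusted p = 3.8e-05). Tsc22d3, the glucocorticoid-induced leucine zipper gene, fell by 1.36 and Fkbp5, a chaperone of the receptor, by 0.71. The enzymes that interconvert active and inactive glucocorticoid were opposite. Hsd11b1, which activates the hormone, averaged 21.3 ± 3.79 CPM at day 4 and 5.79 ± 0.881 CPM at day 2 (1.71 ± 0.32, adjusted p = 0.00183), while Hsd11b2, which inactivates it, averaged 64.3 ± 6.77 CPM at day 4 and 257.8 ± 16.7 CPM at day 2 (-1.99 ± 0.39, adjusted p = 0.00227). In the circadian clock, 5 of 21 genes fell and 2 rose, where 12.9% and 21% of all genes did. Arntl, which encodes BMAL1, had 27.9, 21.8 and 25.3 CPM at day 4, against 54.9, 54.7 and 60.2 CPM at day 2 (-1.15 ± 0.16, adjusted p = 0.000253), and its relative Npas2 fell by 1.59 ± 0.21. The labels give no hour of harvest, so an effect of the time of day cannot be told apart from that of the day. The rises of Bhlhe40 and Ciart were each lost when replicate 1 or 2 of day 2 or replicate 2 of day 4 was absent, and Bhlhe40 also when replicate 1 of day 4 was (adjusted p = 0.0514 to 0.131). The clock E-box, searched as CACGTG, stood in 6 of 21 windows of 16 clock genes (28.6%). It stood in 7.15% of all windows and in 9.46% of those of genes tested.

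Whether the change from day 2 to day 4 differed from the neighbouring steps was tested directly. The step from day 2 to day 4 exceeded the step from day 4 to day 6 for 1696 genes (11.1%) and lay below it for 803 (5.27%). It exceeded the step from day 0 to day 2 for 1727 genes (11.3%) and lay below it for 914 (6.0%). Interferon-induced genes exceeded the later step in 36 of 37 cases and the earlier in 35 of 37, and proliferation genes in 28 and 26 of 36. The proliferation list had a median of -0.84 in the earlier step and -0.97 in the later. Xenobiotic genes had a lower step from day 2 to day 4 in 22 and 25 of 49 cases. These counts fell when libraries of day 4 or day 2 were left out: 822 to 1024 genes exceeded, and 268 to 363 lay below, the later step without a day 4 library, and 507 lay below it without day 2 replicate 2. Against the earlier step, 765 to 1106 exceeded and 328 to 544 lay below without a day 2 library. Leaving out day 6 replicate 3 raised the number below the later step to 1299, and leaving out day 6 replicate 2 raised the number below the earlier step to 1577. For scale, 49 genes (0.321%) were called at day 2 against day 0, 18 higher (0.118%) and 31 lower (0.203%), and 434 (2.85%) at day 6 against day 4. Together with both directions, 16.4% of genes had a step from day 2 to day 4 that differed from the later step and 17.3% one that differed from the earlier. After day 4 the T and NK markers were called higher in 20 of 28 cases at day 6 and the interferon-induced genes lower in 18 of 37, where 1.9% and 0.951% of all genes were called in those directions.

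Day 6 against day 0 shares no library with day 4 against day 2 and called 5476 genes (35.9%), 3585 higher (23.5%) and 1891 lower (12.4%). Both comparisons came from the same fit and used its 1 estimate of the spread of each gene, so their calls are not independent. Of the genes called in the day 4 against day 2 comparison, 3030 were called the same way there, 58.5% of these calls and 55.3% of the day 6 against day 0 calls. By direction, 57.3% of the genes higher at day 4 than at day 2 and 60.4% of the genes lower were called the same way. Another 31 genes were called in opposite directions. The 15 that were lower at day 4 than at day 2 but higher at day 6 than at day 0 included Sgk1, Pdk4, Tsc22d3 and Fkbp5 of the glucocorticoid list. Sgk1 averaged 53.8, 160.3, 28.3 and 106.3 CPM at days 0, 2, 4 and 6, and Fkbp5 averaged 107.7, 228.5, 138.4 and 363.0 CPM. Both means were lower on days 0 and 4 than on days 2 and 6. The 16 in the other direction included Hmgcs1, Sqle, Lss, Fdft1, Mvd, Acat2 and Hsd17b7 of sterol synthesis. With edgeR, Lss, Acat2 and Hsd17b7 kept their call at day 4 against day 2. Fdft1, Mvd, Sqle and Hmgcs1 lost it (edgeR adjusted p = 0.068, 0.0947, 0.12 and 0.132). Those genes and Acat2 also lost it in limma on leaving out single libraries, with adjusted p up to 0.184. Lss, which forms lanosterol, the first sterol of the pathway, averaged 114.7, 35.0, 61.3 and 46.7 CPM at days 0, 2, 4 and 6. On the whole sterol and fatty acid synthesis list, 10 of 33 genes rose at day 4 against day 2 and 1 fell (median 0.39), 14 were lower at day 2 than at day 0, and 24 were lower at day 6 than at day 0 (12.4% of all genes tested). The 10 rises became 5 without day 2 replicate 1 or 2 or day 4 replicate 3, 6 without day 4 replicate 1 and with edgeR or either other scaling, 17 without day 6 replicate 2 and 22 with only the libraries of days 2 and 4.

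**Figure D5:**
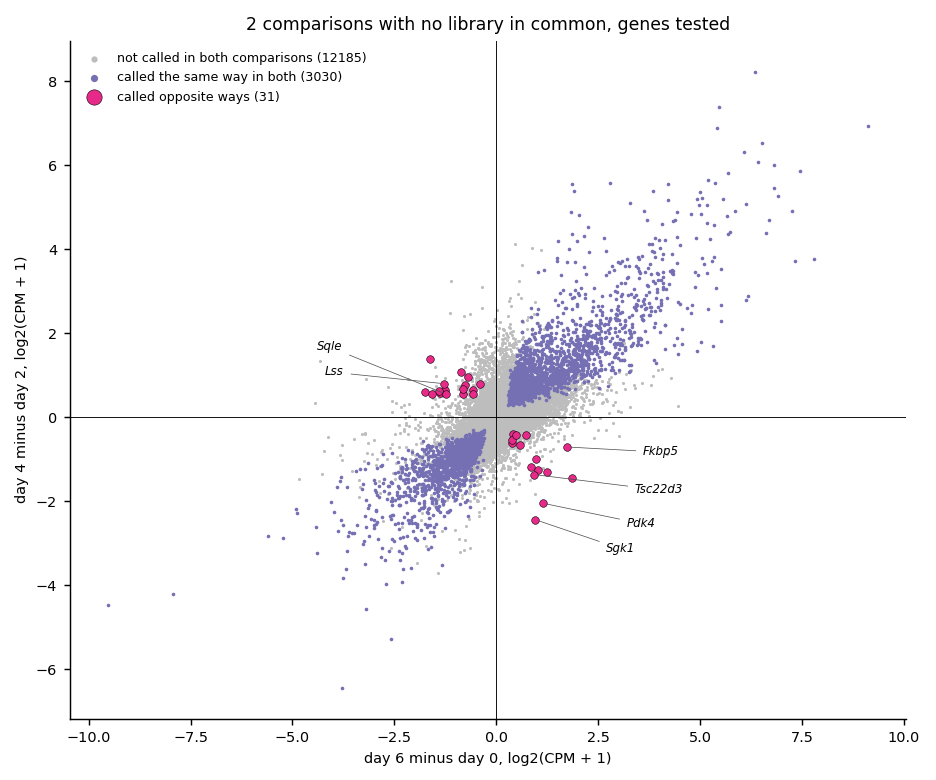
Each point is a gene tested, with its log2 difference at day 4 minus day 2 on the y axis and at day 6 minus day 0 on the x axis. The comparisons share no library but use the same fitted variance. Of the genes called in both, 3030 lie in the same direction and 31 in opposite ones. Among the 31 are Sgk1 and Fkbp5, lower at day 4 than at day 2, and Lss and Sqle, higher. Sqle was not called at day 4 against day 2 with edgeR (adjusted p = 0.12).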

How the data were processed

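Per the labels' protocols, TRIzol-extracted RNA was poly(A)-selected, made into dUTP-marked libraries and read as paired ends. Per the submitters' processing notes, HISAT2 2.2.1, featureCounts 2.0.1 and the build mm10 were used. For the counting, strand setting and annotation are not given in the sources used; overlapping, antisense and near-identical genes may thus share reads. The authors deposited CPM, read counts scaled to a fixed library total, which sum to nearly that total in every library. At least 99.995% of values per library lay within 0.1 of a whole number of reads, and these recovered reads served as counts for the alternatives with edgeR 4.0.16 (quasi-likelihood test, TMM) and DESeq2 1.42.0.

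Values as log2(CPM + 1) went into limma 3.58.1 under R 4.3.3, where each of the 4 days had a mean, all 12 libraries shared the variance, moderation used trend and robust, and Benjamini-Hochberg adjustment ran over 15246 genes at 0.05. The log2(CPM + 1) scale understates changes of low genes. On simulated data for this comparison (15246 genes), limma recovered 16 of 50 changes of 1.5-fold, 49 of 50 of 2-fold and 50 of 50 of 4-fold. The simulation gave all genes the same spread and changed only a small share of them, at day 4 alone and not among low genes. Recovery in the real libraries, where far more genes differed, may be unlike these rates.

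Named genes were the 12 largest rises and 12 largest falls (adjusted p under 0.05, mean of at least 5 CPM, no overlap between days, no predicted genes or receptor segments), up to 4 and 2 members per list in its main and other direction, and a panel of inflammation and epithelial genes. Other genes named were chosen after their values were seen, and some genes that meet the rule are not reported here. The members and lists were chosen with earlier results of these data known. Coordinates are from GENCODE M21 (GRCm38, also called mm10). Alternatives were pseudocounts of 0.5 and 5, no filter, genes averaging 5 CPM or more, scaling by median of ratios, quantile normalization, no trend or robust moderation, only days 2 and 4, the replicate number as a block, edgeR, DESeq2 and leaving out each library.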

Additional observations from a re-analysis of the deposited data

How the results depend on the processing

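The count of higher genes ranged from 2453 to 3945 and that of lower genes from 1376 to 2590 when each library was left out in turn, and the lower count was 2979 with only the libraries of days 2 and 4, where the variance is estimated from those 6. Genes whose step from day 2 to day 4 exceeded the later step ranged from 822 to 2047 and the earlier step from 765 to 2499 on leaving out libraries. Genes below the later step ranged from 268 to 1299 and below the earlier step from 328 to 1577, and DESeq2 gave 1492 and 1488, for which the cause was not tested. Calls shared in direction with day 6 against day 0 ranged from 2342 to 3830. No named gene changed direction under any alternative that tested it. Higher calls outnumbered lower ones except on quantile-normalized values (2486 higher, 2627 lower), and the medians of all genes and of the immediate early list were below 0 under both other scalings. Of 239 named genes past the threshold, 195 kept it under every alternative that tested them and 43 lost it on leaving out at least 1 library. The alternative limited to genes averaging 5 CPM or more held 209 named genes, against 241 with DESeq2, and could not test the others. Deviations from the means of days 2 and 4 correlated at r = -0.03, -0.093 and -0.212 between samples with the same replicate number. Between samples with different numbers r was -0.012 to 0.133. Deviations from a mean of 3 libraries are tied to each other, so these values cannot decide whether the numbers mark a pairing. With the replicate number as a block 3352 genes were higher and 2067 lower. The block changed the call of 3 named genes, Cidec, Bmp2 and Ankrd37. With 3 libraries a day, changes of 1.5-fold were often missed in a simulation simpler than the real data, and genes near 1 CPM rest on about 30 reads a library.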

Other observations

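Of the genes that changed by more than 8-fold in CPM + 1, 58 of 155 higher and 20 of 33 lower were on none of the gene lists. The ones named here were chosen after their values were seen. Schlafen genes, which curb T cell growth and viral translation, were among the rises. Slfn4 had 2947.2, 2246.4 and 2331.5 CPM at day 4, against 62.0, 55.2 and 41.2 CPM at day 2 (5.55 on the log2 scale). Slfn1 averaged 46.5 ± 2.29 CPM at day 4 and 0.271 ± 0.158 CPM at day 2 (SD, n = 3 each), and Slfn2 averaged 95.7 ± 9.11 CPM at day 4 and 4.82 ± 2.34 CPM at day 2. Members of the interferon-inducible family of DNA sensors rose with them: Ifi204 had 89.1, 103.2 and 97.5 CPM at day 4, against 3.92, 2.03 and 2.75 CPM at day 2, and Ifi205 averaged 32.3 ± 1.5 CPM at day 4 and 0.948 ± 0.111 CPM at day 2. These families hold close paralogs that may share reads. Cd274, which encodes the checkpoint ligand PD-L1, had 96.1, 139.7 and 96.7 CPM at day 4, against 4.88, 8.99 and 7.83 CPM at day 2 (3.78 on the log2 scale). Siglec1, a receptor of interferon-exposed macrophages, averaged 51.5 ± 12.2 CPM at day 4 and 3.31 ± 0.965 CPM at day 2. Cemip, which breaks down hyaluronan, averaged 88.2 ± 11.5 CPM at day 4 and 2.54 ± 1.06 CPM at day 2. In each of these genes the days did not overlap, as in 34.8% of all genes in that direction. They were picked for large changes, so that separation is not a result for them.

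Among the falls on no list were enzymes of hormone, alcohol and amine metabolism. Dio1, which activates thyroid hormone, had 3.8, 2.7 and 3.15 CPM at day 4, against 62.0, 70.7 and 46.3 CPM at day 2 (-3.83 on the log2 scale). Pck1, a gluconeogenic enzyme, had 13.1, 15.4 and 14.7 CPM at day 4, against 164.9, 216.9 and 181.9 CPM at day 2 (-3.61). Aoc1, the diamine oxidase that degrades histamine in the gut, averaged 15.2 ± 4.42 CPM at day 4 and 142.1 ± 15.4 CPM at day 2. Selenbp1, a methanethiol oxidase, averaged 88.8 ± 19.1 CPM at day 4 and 779.2 ± 94.0 CPM at day 2. Adh1, an alcohol dehydrogenase that also oxidizes retinol, averaged 28.4 ± 5.21 CPM at day 4 and 248.0 ± 63.7 CPM at day 2, and Lrat, which esterifies retinol, averaged 0.679 ± 0.216 CPM at day 4 and 10.9 ± 1.75 CPM at day 2. The fall of Lrat was -2.82 on the log2(CPM + 1) scale, so it is not among those past 8-fold in CPM + 1. All these falls were without overlap between the days, as in 24.3% of all genes in that direction. Such separation is not a result for genes picked for large changes. What accounts for the falls was not tested.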
